A study of Mus musculus with 391 samples.

Results

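Plvap, Plpp1, Plpp3, Esm1, Exoc3l2 and Cd24a are 6 of the 56941 genes in a table of read counts from single brain vascular cells of the mouse. They were taken by name as genes of the fenestral diaphragm and of permeable endothelium, and all 6 had reads in both classes of cells. Adult mouse brain was dissociated, vascular fragments were isolated from it and digested further, and the freed cells were sorted 1 per well for Smart-seq2 sequencing, which reads whole transcripts without molecular identifiers. The labels give 111 endothelial cells, which carry the code CP-EC in a deposited cell table, and 280 microglia, which carry the code MG. What the letters CP stand for is not spelled out in the labels. Neither class has a treatment, a genotype or a transgene in the labels, and strain, sex, exact age, sorting gate and the number of animals are not given. Each class therefore counts as 1 sample. Cells are not replicates of a class, and no test or p-value was computed from them.

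PLVAP is a membrane glycoprotein that builds the thin diaphragms across endothelial fenestrae, transendothelial channels and the necks of caveolae. Capillaries of the choroid plexus, the circumventricular organs and endocrine glands carry it, and mature endothelium with a blood-brain barrier is known to lack it. PLPP1 and PLPP3 are membrane enzymes that remove phosphate from lysophosphatidic acid, sphingosine 1-phosphate and related lipids at the cell surface. ESM1, or endocan, is a small secreted proteoglycan with a dermatan sulfate chain, made by endothelial tip cells and induced by VEGF. EXOC3L2 resembles a subunit of the exocyst, the complex that tethers secretory vesicles to the plasma membrane. CD24, the product of Cd24a in the mouse, is a short, heavily glycosylated surface protein on a lipid anchor that binds P-selectin and Siglec receptors.

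Promoter sequence was at hand for 3 of the 6 genes, from RefSeq for GRCm38.p6, which is not the build of the counts. All 3 are shown. They hold the pair with the highest rank correlation over all endothelial cells (Esm1 and Plpp3, though other pairs were higher within single plates). The gene whose levels were least even (Exoc3l2) is also among them. Each window is the 250 bases before the annotated start of the gene, on the plus strand, at chr13:113209409-113209658 for Esm1, chr7:19463037-19463286 for Exoc3l2 and chr4:105157097-105157346 for Plpp3. Capitals mark GGAAG, one form of the GGAA core of ETS factor sites, or its reverse complement. The shorter GGAA was not marked or counted.
Esm1: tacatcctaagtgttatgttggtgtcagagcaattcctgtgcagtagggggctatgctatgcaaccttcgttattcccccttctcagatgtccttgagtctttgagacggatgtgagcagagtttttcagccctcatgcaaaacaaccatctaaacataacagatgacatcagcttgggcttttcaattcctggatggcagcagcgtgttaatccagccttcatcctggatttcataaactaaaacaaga
Exoc3l2: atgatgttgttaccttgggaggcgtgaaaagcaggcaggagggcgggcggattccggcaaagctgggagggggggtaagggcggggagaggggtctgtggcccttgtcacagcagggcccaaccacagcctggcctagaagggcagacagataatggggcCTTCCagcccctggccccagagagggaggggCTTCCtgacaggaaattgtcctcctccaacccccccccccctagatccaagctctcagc
Plpp3: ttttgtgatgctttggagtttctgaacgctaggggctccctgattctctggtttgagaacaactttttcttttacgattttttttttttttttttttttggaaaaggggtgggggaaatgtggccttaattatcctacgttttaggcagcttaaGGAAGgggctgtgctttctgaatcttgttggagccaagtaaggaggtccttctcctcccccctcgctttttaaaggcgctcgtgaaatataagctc
The Exoc3l2 window held 2 GGAAG matches, 90 and 59 bases before the start, and the Plpp3 window held 1, at 96 bases. The Esm1 window held no GGAAG match, but it held TTCC, the reverse complement of the shorter GGAA. Of 32851 windows of this length in the same table, 64.1% held the motif on either strand. ACAAT, a core of SOX sites, stood once in the Exoc3l2 window (27.7% of windows) and GGGCGG, the GC box, stood there 3 times (32.7%), with 2 of those matches overlapping. TATAA stood in the Plpp3 window 9 bases before the start (22.8% of windows), and CACCC stood there at 144 bases (52.0%). TGANTCA, the AP-1 motif, was in none of the 3 windows and in 6.75% of all. The windows also differed in base composition, with 63.6% G and C for Exoc3l2, 44% for Esm1 and 42.4% for Plpp3, against a median of 52.4% over all windows. A match is a run of letters and was not tested for binding.

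The endothelial cells held 21361227 gene reads, 83954 to 602175 per cell with a median of 174345, and the microglia held 47508014, 39876 to 504875 per cell with a median of 146506. The cells came from 4 plates, called A to D here and told apart only by the start of the column names. Plates A and B held both classes (7 and 10 endothelial cells, 133 and 147 microglia), and plates C and D held 50 and 44 endothelial cells only. Class levels are given in CPM, the reads of a gene per 1000000 gene reads of the class, and parentheses hold exact 95% intervals, which cover counting error only. Summed over 10 endothelial markers, the endothelial cells lay between 9472 and 40550 CPM, against 0 to 4795 CPM in the microglia. Over 12 microglia and macrophage markers the endothelial cells lay between 0 and 2658 CPM (1 cell above 1000), against 2458 to 62939 CPM in the microglia. None of the markers on either list was at 0 in either class. In endothelial cells the 8 mural markers summed to a median of 14.9 CPM, with 4 cells above 1000 and a rank correlation of -0.07 with Plvap, and the 8 choroid epithelium markers to a median of 0, with 6 cells above 1000 and a rank correlation of 0.12. The lymphatic markers had a median of 136 CPM there, mostly Flt4, with 2 of 5 at 0 and 19 cells above 1000. The astrocyte markers had a median of 85.9 CPM, mostly Gja1, with 14 cells above 1000, and the ependymal markers 5.65. Fibroblast, oligodendrocyte, neuron and erythrocyte markers had medians of 0.

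All 6 genes exceeded their microglial level by 4-fold or more in endothelial cells, the size counted as a difference here, on a log2 scale with 1 CPM added to each class. Of 14989 genes at 1 CPM or more in either class, 11.7% were that much higher in endothelial cells. The median log2 ratio of endothelial cells over microglia was 8.82 for the 6 genes and -0.36 for all genes tested. Within plate A the median was 9.93 for the 6 genes and -1.73 for all, and within plate B it was 8.44 and -1.87. All 6 were past 4-fold on each of these plates, where 10.9% and 11.5% of all genes were. The genes were chosen with this contrast already known, so the count describes them and gives no support to the choice.

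Plvap, the diaphragm protein, had the highest level of the 6 per length of transcript, 3944 CPM per kilobase of exon in endothelial cells. Per cell it ran from 212 CPM in the lowest endothelial cell through a median of 8443 to 18194 in the highest, against 0 to 35.6 CPM over the microglia with a median of 0. The classes did not overlap in any cell. Pooled, it stood at 7837 CPM (7799.6 to 7875) in endothelial cells and 1.52 CPM (1.19 to 1.91) in microglia, a ratio of 5171 (4106 to 6609). As a share of endothelial reads it was second among all genes. Gtpbp3, on the opposite strand, overlaps Plvap in the GENCODE M21 annotation, and whether the authors counted by strand is not given in the sources used here. Gtpbp3 itself stood at 24.5 CPM in endothelial cells and 15.0 CPM in microglia.

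Plpp3, a lipid phosphatase, had 5.40 CPM in its lowest endothelial cell, a median of 3681 and 8198 in the highest, against 0 to 43.1 CPM in microglia. Pooled, Plpp3 stood at 3616 CPM (3591 to 3642) in endothelial cells and 2.57 CPM (2.13 to 3.07) in microglia, a ratio of 1408 (1179 to 1696). Plpp1, its relative, ran from 10.9 CPM through a median of 2713 to 7121 per endothelial cell, against 0 to 705 CPM in microglia. Plpp1 pooled to 2553 CPM (2531 to 2574) in endothelial cells and 19.4 CPM (18.2 to 20.7) in microglia, a ratio of 131 (123 to 140.2). The classes overlapped for both enzymes. For Plpp3, 1 endothelial cell lay at or below the highest of the microglia and 50 microglia lay at or above the lowest endothelial cell, and for Plpp1 the numbers were 8 endothelial cells and 23 microglia. Per kilobase of exon their order turned, with Plpp1 at 1459 and Plpp3 at 1145 CPM per kilobase in endothelial cells. Plpp1 shares 23.1% of its 50-base windows with Mtrex, an RNA helicase gene on the opposite strand. Mtrex stood at 38.0 CPM in endothelial cells and 25.0 CPM in microglia.

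Cd24a had 0 CPM in its lowest endothelial cell, a median of 2178 and 6036 in the highest, against 0 to 1655 CPM in microglia. Pooled, Cd24a stood at 2119 CPM (2099 to 2138) in endothelial cells and 27.1 CPM (25.7 to 28.7) in microglia, a ratio of 78.1 (73.9 to 82.6), the smallest of the 6. Gm6212, a predicted gene that shares 2.75% of the 50-base windows of Cd24a, reached 0.936 CPM in endothelial cells and 0 in microglia. Esm1 ran from 0 through a median of 435 to 8327 CPM per endothelial cell, against 0 to 22.3 CPM in microglia. Its pooled level was 1434 CPM (1418 to 1450.4) in endothelial cells and 0.147 CPM (0.0592 to 0.304) in microglia, a ratio of 9734 (4724 to 24213) that rests on 7 microglial reads. Exoc3l2 ran from 0 through a median of 19.9 to 4532 CPM per endothelial cell, against 0 to 197 CPM in microglia. It pooled to 440.1 CPM (431 to 449) in endothelial cells and 1.18 CPM (0.890 to 1.53) in microglia, a ratio of 373 (287 to 495). For Cd24a, Esm1 and Exoc3l2 the classes overlapped, since each had at least 1 endothelial cell at 0. Per kilobase of exon, Cd24a stood at 821, Esm1 at 684 and Exoc3l2 at 110 CPM per kilobase in endothelial cells, the lowest level of the 6. Averaged over cells, the step from Plvap to the next gene, Plpp1, was 2872 CPM per kilobase and exceeded the SD over cells of both, 1642 for Plvap and 700.01 for Plpp1. The other steps in the order Plpp1, Plpp3, Cd24a, Esm1, Exoc3l2 were 159.8 to 592 CPM per kilobase, and each was smaller than the larger SD of its pair. Gzmk, which overlaps Esm1 on the opposite strand, had 0 reads in both classes, and Gm45167, which overlaps Exoc3l2, had 0 CPM in endothelial cells and 0.126 in microglia. Within plates A and B the log2 ratio of Exoc3l2 was 9.57 and 7.32 and that of Cd24a 7.14 and 5.53, against 7.66 and 6.24 pooled.

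**Figure D1:**
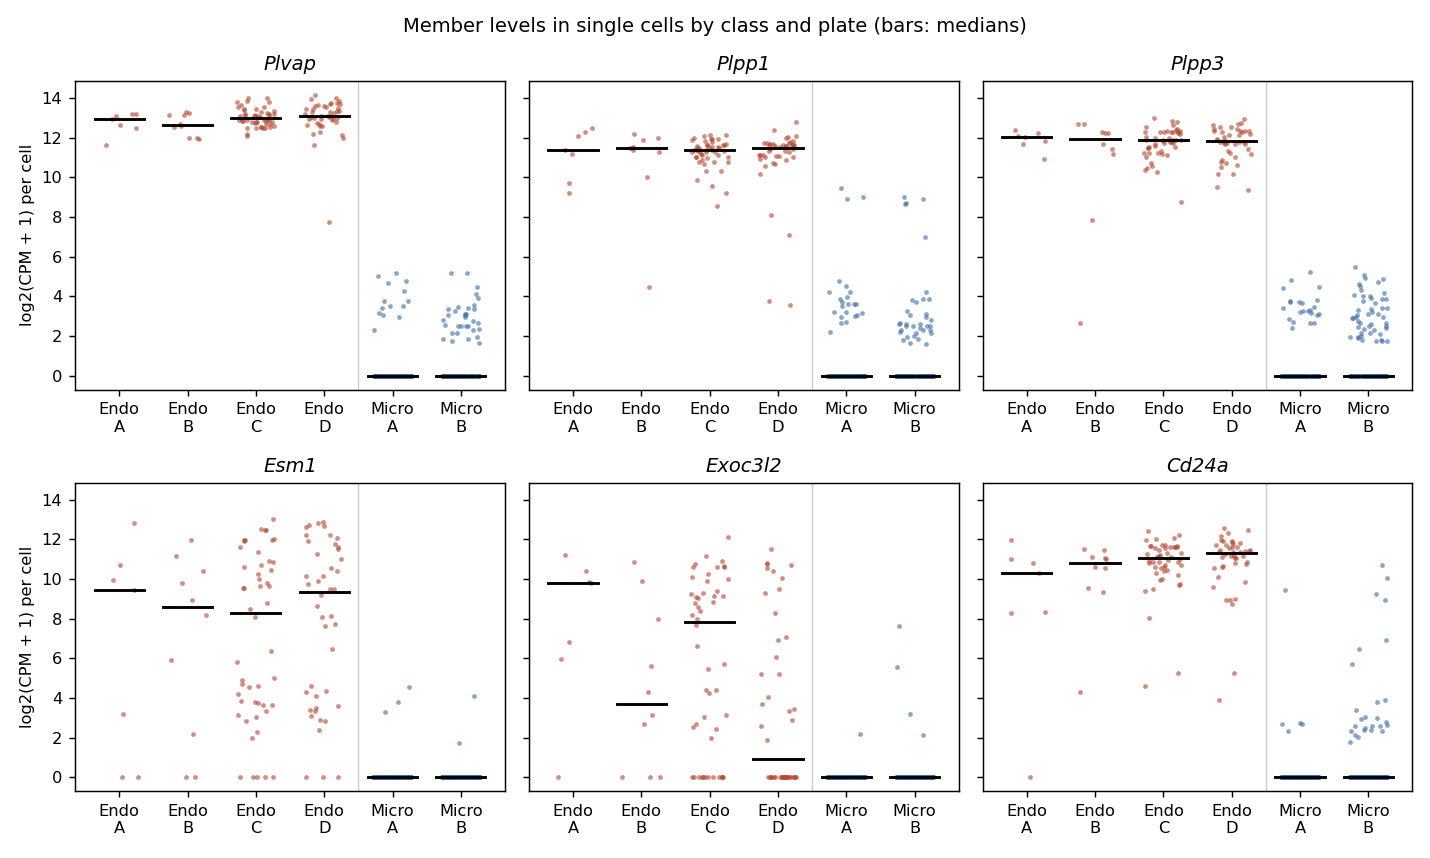
Level of each gene in every cell, as log2 of CPM plus 1, by class and plate, with endothelial cells (Endo, plates A to D) left of microglia (Micro, plates A and B) and bars at the medians. Plvap leaves a gap between the classes, while Esm1 and Exoc3l2 span the whole axis within the endothelial cells, 38 of which had no Exoc3l2 read.

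The 6 genes fell into an even and an uneven set among endothelial cells. Plvap, Plpp1 and Plpp3 were read in all 111 cells and Cd24a in 110, while Esm1 was read in 99 cells (89.2%) and Exoc3l2 in 73 (65.8%). At 10 or more reads the counts were 111 for Plvap, 110 for Plpp3, 108 for Plpp1, 106 for Cd24a, 68 for Esm1 and 51 for Exoc3l2. The coefficient of variation of per-cell CPM was 0.372 for Plvap, 0.454 for Plpp1, 0.455 for Plpp3 and 0.587 for Cd24a, against 1.43 for Esm1 and 1.67 for Exoc3l2. The 394 genes at 400 CPM or more in endothelial cells had a median coefficient of 1.09 with quartiles of 0.829 and 1.36. Among these, 6 genes were more even than Plvap, 17 more even than Plpp1, 18 more even than Plpp3 and 41 more even than Cd24a. Esm1 had 321 genes below it and Exoc3l2 372. A gene with few reads has a larger coefficient from counting alone. Exoc3l2 was near the foot of this set, at rank 353 by level, but it had 9402 reads over the 111 endothelial cells. The part of counting in its coefficient was not tested. Esm1 was at rank 76.

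Esm1 took a broad range within each plate. Its quartiles over all endothelial cells were 11.2 and 1994 CPM, and 12 cells had no read. Exoc3l2 had a lower quartile of 0 and an upper quartile of 626 CPM. The upper quartile and median of Plvap were 10305 and 8443 CPM, by comparison, and its lower quartile was 6592. Plpp1 had quartiles of 2105 and 3291 CPM, Plpp3 of 2483 and 4998, and Cd24a of 1373 and 3101.

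**Figure D2:**
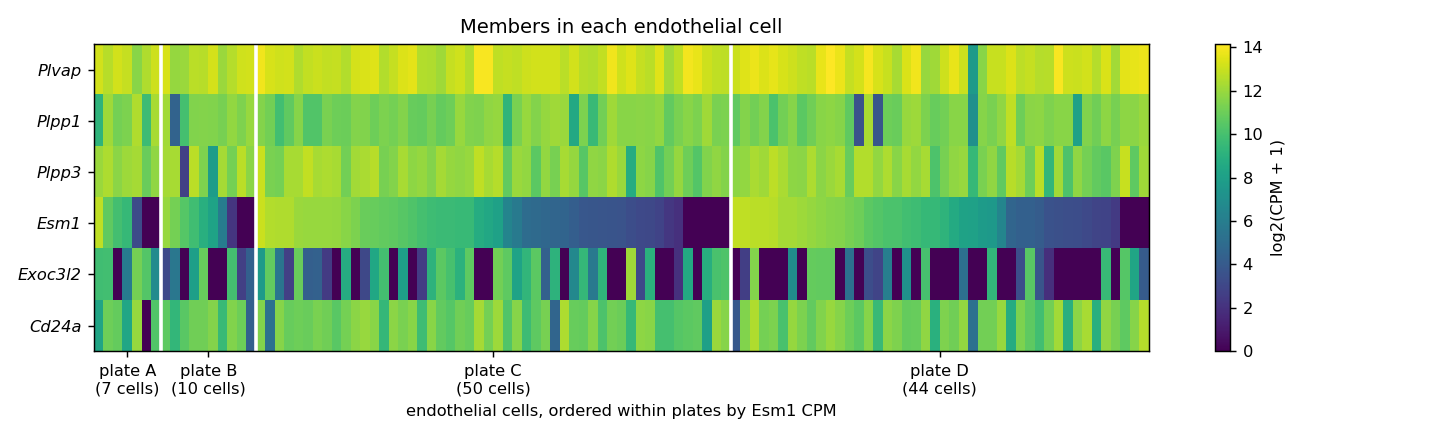
Level of the 6 genes in each of the 111 endothelial cells, as log2 of CPM plus 1 on the colour scale, with cells grouped by plate and ordered within a plate by Esm1. The Plvap, Plpp1, Plpp3 and Cd24a rows stay bright across the Esm1 order, and the Exoc3l2 row is broken by cells at 0 on each plate.

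The plates were close for Plvap, Plpp1 and Plpp3. The median Plvap level was 7756 CPM on plate A, 6448 on B, 8067 on C and 8754 on D. That of Plpp1 was 2657, 2884, 2636 and 2856 CPM on plates A to D, and that of Plpp3 was 4213, 4024, 3732 and 3594 CPM. Each of these sets of plate medians lay inside the quartiles of the pooled cells for its gene, apart from Plvap on plate B. Cd24a had medians of 1247, 1833, 2116 and 2547 CPM on plates A to D, and the median of the 7 cells of plate A lay below the pooled lower quartile.

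Exoc3l2 differed most between the plates. It was read in 6 of 7 cells on plate A, 7 of 10 on B, 38 of 50 on C and 22 of 44 on D. Pooled by plate it stood at 807 CPM on A, 446 on B, 561 on C and 268 on D. The medians were 899.7 CPM on A, 13.4 on B, 231 on C and 1.37 on D, and the highest cells were at 2366, 1849, 4532 and 2932 CPM. High cells were thus present on every plate, and the share of cells with reads was lowest on D. Median gene reads per cell were 169046 on C and 182890 on D, and median genes read per cell were 3108 on C and 2397 on D. The part of either in the level of Exoc3l2 was not tested. What a plate stands for is not given in the labels, and its part in the level of Exoc3l2 was not tested. Esm1 had plate medians of 706, 393, 313 and 655 CPM on plates A to D and pooled levels of 1619, 797, 1331 and 1680 CPM.

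All 6 genes were read together in 62 of 111 endothelial cells (55.9%, exact Clopper-Pearson interval 46.1 to 65.3), 5 in 47 cells and 4 in 2 cells. Intervals of shares take cells as independent draws and leave out differences between plates, and the shares on plates C and D given below lay outside this one. In microglia they were together in 0 of 280 cells, which allows a share of up to 1.07%. There 144 microglia had no read of any, 75 had 1 of the genes, 39 had 2, 20 had 3 and 2 had 4. At 10 or more reads, 29 endothelial cells (26.1%, 18.2 to 35.3) held all 6 genes, 53 held 5, 28 held 4 and 1 held 3, while 17 microglia held 1 and 263 held none. The share of endothelial cells with a read of every gene was 4 of 7 on plate A, 5 of 10 on B, 34 of 50 (68%) on C and 19 of 44 (43.2%) on D. With each cell thinned to 80000 reads it was 46.8%, and the 53 microglia below that depth were left out.

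After thinning, the even genes were still read in nearly every endothelial cell. Plvap was read in 100% of endothelial cells against 9.69% of microglia, and Plpp1 in 99.1% against 13.7%. Plpp3 was read in 99.1% of endothelial cells against 14.5% of microglia, and Cd24a in 99.1% against 7.93%. Esm1 was read in 82.0% of endothelial cells against 0.881% of microglia, and Exoc3l2 in 59.5% against 1.32%. Before thinning the shares of microglia with a read were 16.8% for Plvap, 21.1% for Plpp1, 26.4% for Plpp3, 1.79% for Esm1, 1.79% for Exoc3l2 and 11.1% for Cd24a. At 10 or more reads, 30 endothelial cells held both Esm1 and Exoc3l2, 38 held Esm1 without Exoc3l2, 21 held Exoc3l2 without Esm1 and 22 held neither.

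Between endothelial cells the levels of the 6 genes moved together only weakly. Over the 15 pairs the median rank correlation (Spearman's rho of per-cell CPM, 111 cells) was 0.11, and it was 0.03 within plate C (50 cells) and 0.20 within plate D (44 cells). The values are descriptions, since the cells share preparation, plates and depth. The highest over all cells was between Plpp3 and Esm1, at 0.36, with 0.45 within C and 0.33 within D. Within C, Plpp3 and Cd24a were slightly higher at 0.46 (0.05 within D), and within D, Plvap was higher with Plpp1 (0.49), Plpp3 (0.39) and Cd24a (0.36). Plvap and Plpp1 stood at 0.34, 0.28 and 0.49. The lowest was between Plpp1 and Esm1, at -0.34 over all cells, -0.38 within C and -0.32 within D. Esm1 was thus ranked with one lipid phosphatase and against the other on both large plates, while the 2 enzymes themselves were at 0.08, 0.02 and 0.11. The summed astrocyte markers moved with the same genes, at a rho of 0.34 with Esm1, -0.33 with Plpp1 and 0.16 with Plpp3 over all cells. This sum was mostly Gja1, a connexin, at 352 CPM in endothelial cells, while each of the others was at 13.5 CPM or less. Gja1 alone had a rho of 0.36 with Esm1, 0.19 within C and 0.55 within D, and the part of these markers in the values was not tested. Plvap and Esm1 stood at 0.11, 0.03 and 0.17, and Esm1 and Exoc3l2 at -0.03, -0.01 and 0.04. Of the 15 pairs, 11 were above 0 and 4 below, and 10 kept their sign over all cells, C and D. Plvap and Exoc3l2 did not, at -0.15 over all cells, -0.32 within C and 0.14 within D, nor did Exoc3l2 and Cd24a, at -0.01, -0.26 and 0.28.

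**Figure D3:**
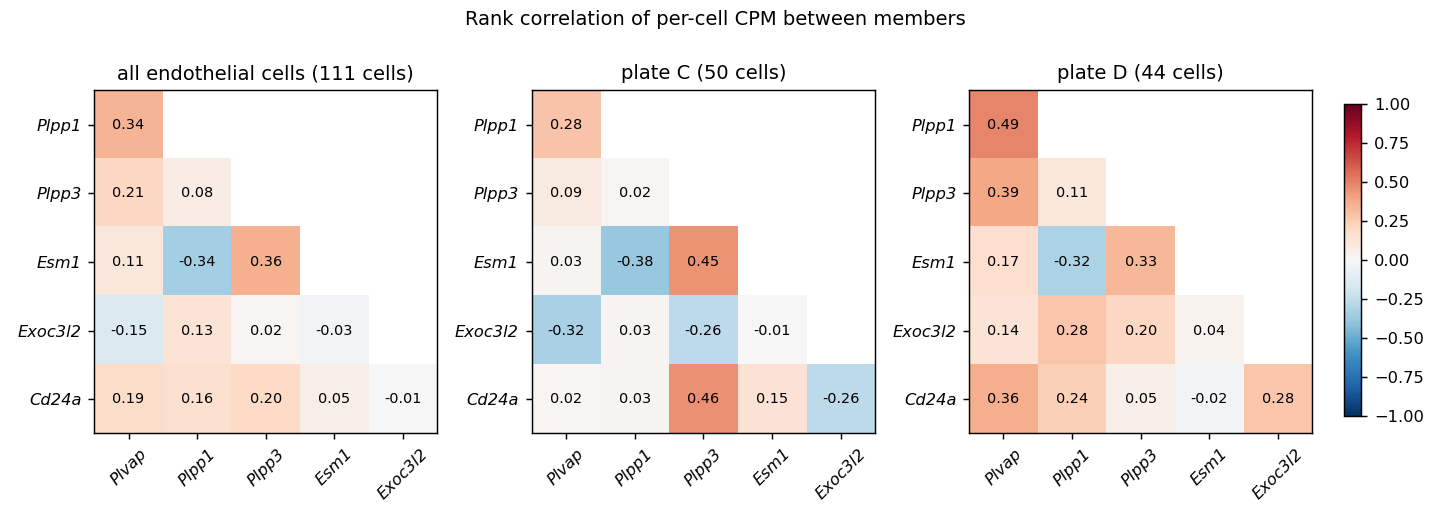
Spearman's rho of per-cell CPM for each pair of the 6 genes, over all 111 endothelial cells and within plates C (50 cells) and D (44 cells), with values in the cells and colour from -1 to 1. Plpp1 with Esm1 is below -0.3 and Plpp3 with Esm1 above 0.3 in all 3 panels.

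The Plvap level was tied to depth. Plvap CPM against the gene reads of a cell had a rho of -0.70 over all endothelial cells, -0.70 within plate C and -0.84 within plate D, while Plvap reads against gene reads had 0.54. For Plpp1 CPM the rho with gene reads was -0.36, for Plpp3 -0.16 and for Cd24a -0.16, against 0.09 for Esm1 and 0.07 for Exoc3l2. Plvap reads ran from 67 to 2707 per cell with a median of 1536. On the 1987 bases of Plvap exon in GENCODE M21 the highest cell had 1.36 reads per base, the seventh highest of 23659 genes. The highest values of the others in any cell were 0.778 reads per base for Esm1, 0.645 for Plpp1, 0.637 for Plpp3, 0.448 for Cd24a and 0.160 for Exoc3l2. No gene went over 2 reads per base in any cell, 22 went over 1, and the highest, mt-Rnr2, reached 1.57. How the authors treated duplicate reads is not given in the sources used here, and its part in the level and evenness of Plvap was not tested. The correlations of Plvap with Plpp1 join 2 genes that both ran lower in CPM with depth, and the part of depth in them was not tested.

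**Figure D4:**
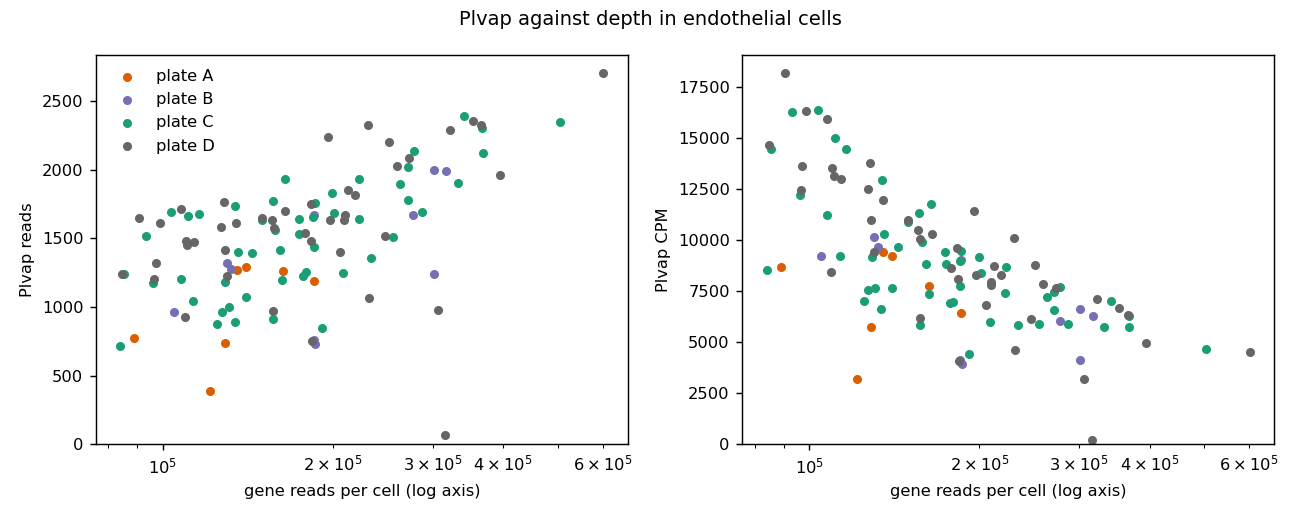
Plvap reads (left) and Plvap CPM (right) against gene reads per cell on a log axis, for the 111 endothelial cells coloured by plate. The highest cell has 2707 reads, CPM runs down as gene reads grow, and 1 cell of plate D with 67 reads stands far below the rest.

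That cell of plate D was the lowest in Plvap, at 212 CPM where the next endothelial cell had 3182. It held 315781 gene reads, against a median of 174345 over the endothelial cells, and the part of depth in its levels was not tested. Plpp1 stood at 136 CPM in it, Plpp3 at 722, Esm1 at 269, Exoc3l2 at 0 and Cd24a at 38.0. Plpp1, Plpp3 and Cd24a were each below the pooled lower quartile there. Its 10 endothelial markers summed to 9472 CPM, the lowest of the 111 cells. With pooled endothelial levels in parentheses, Emcn, an endothelial sialomucin, stood at 2904 CPM (3226) and Egfl7 at 2432 (2538). Cdh5, the cadherin of endothelial junctions, stood at 1824 (514), Flt1 at 1131 (3183) and Tek at 580 (660). Pecam1 stood at 399 (2597), Eng at 143 (4819), Esam at 38.0 (2189), Kdr, the main VEGF receptor, at 22.2 (2888) and Tie1 at 0 (2352). Of the barrier genes, Slc2a1, a glucose transporter, was at 509.8 CPM against a median of 34.4 over the endothelial cells, while Cldn5 was at 44.3 against 208, Itm2a at 9.50 against 625 and Abcg2 at 3.17 against 76.6. The mural markers summed to 1419 CPM, and the part of the mural reads in these values was not tested. Without this cell 56.4% of endothelial cells had a read of every gene, and the median rho over pairs was 0.11.

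By pattern over the 111 endothelial cells, few of the 1136 genes compared stood close to any of the 6. Closest to Plvap was Rn18s-rs5, an rRNA-like gene, with a rho of 0.72 over all cells, 0.70 within C and 0.84 within D. Its reads were nearly constant at 1469 to 1929 per cell, so its CPM mirrors depth, with a rho of -0.99 to gene reads. Igfbp7, a secreted protein of vessels, followed at 0.44, 0.49 and 0.52, with a rho of -0.59 to gene reads. Eng, a co-receptor of TGF-beta and BMP ligands, stood at 0.43, 0.32 and 0.45, with a rho of -0.27 to gene reads. Closest to Esm1 were Oaz2, an inhibitor of the enzyme that starts polyamine synthesis, at 0.44, 0.34 and 0.48, and Igfbp3, a carrier of insulin-like growth factors, at 0.44, 0.42 and 0.52. Their rho to gene reads was 0.06 and -0.18. No gene reached 0.4 with Plpp1, Plpp3, Exoc3l2 or Cd24a, where the highest were Egfl7 at 0.35, Esm1 at 0.36, Smdt1 at 0.33 and Kdelr1 at 0.29.

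Reads of Plpp1 and Cd24a in the microglia class came almost wholly from a few cells. Of 924 Plpp1 reads, 868 (93.9%) lay in 8 cells with 27 to 224 reads each, 3 on plate A and 5 on B, and the other 51 cells with a read held at most 2. Of 1289 Cd24a reads, 1265 (98.1%) lay in 8 other cells with 21 to 471 reads each, 1 on A and 7 on B. No microglia-class cell had 10 or more reads of both genes. Exoc3l2 had 44 of its 56 reads in 1 cell. Plvap, Plpp3 and Esm1 reached at most 4, 8 and 3 reads in any microglia-class cell. Without the cells at 10 or more reads, Plpp1 stood at 1.23 CPM in microglia, Cd24a at 0.531 and Exoc3l2 at 0.254, and all 6 genes then lay between 0.0103% and 0.0710% of their endothelial CPM.

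The 8 Plpp1 cells and the 8 Cd24a cells of the microglia class differed in macrophage markers. In the Plpp1 cells Csf1r, the receptor for the growth factor that macrophages depend on, ran from 4708 to 12112 CPM, and P2ry12, a purine receptor of microglia, from 724 to 7948. Mrc1, the mannose receptor of border macrophages, lay between 0 and 19.0 CPM in them. In the Cd24a cells Csf1r ran from 21.8 to 847 CPM with a median of 47.0, P2ry12 from 0 to 28.4 and Mrc1 from 3.18 to 2823. Over all 280 cells of the class the medians were 4558 CPM for Csf1r, 75.0 for P2ry12 and 1442 for Mrc1. The Cd24a cells were thus low in Csf1r for their class, and the Plpp1 cells were above the class median in it. The 10 endothelial markers summed to 6.36 to 1441 CPM with a median of 33.8 in the 17 cells with 10 or more reads of a member, against 0 to 4795 with a median of 57.0 over the class. Mtrex, which shares sequence with Plpp1, had 0 reads in the 8 Plpp1 cells. These cells were picked by their reads of the 2 genes, so their marker levels are descriptions.

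**Figure D5:**
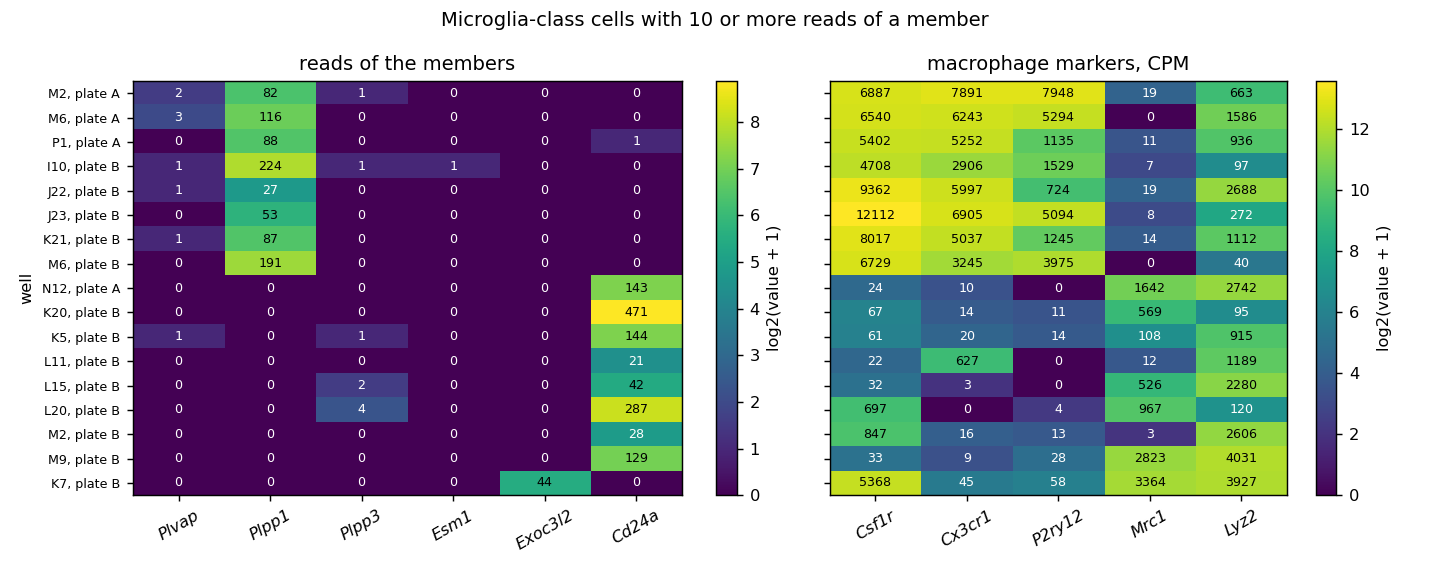
Reads of the 6 genes (left) and CPM of 5 macrophage markers (right) in the 17 microglia-class cells with 10 or more reads of any of the 6, 1 row per well, with log2 of the value plus 1 on the colour scales. Plpp1 and Cd24a are high in different wells, and Csf1r, Cx3cr1 and P2ry12 are each higher in the lowest of the 8 Plpp1 wells than in the highest of the 8 Cd24a wells.

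Around the 6 genes, other genes known from fenestrated or permeable endothelium were mostly higher in endothelial cells as well. Of 18, all measured, 14 passed 4-fold there, 1 lay between and 3 passed 4-fold in microglia, with a median log2 ratio of 5.24 against -0.36 for all genes. Of all 14989 genes, 19.9% passed 4-fold in microglia. All 10 endothelial markers passed 4-fold in endothelial cells too, with a median log2 ratio of 8.37. A contrast with microglia cannot tell permeable endothelium from other endothelium. Igfbp3 stood at 5145 CPM in endothelial cells and 0.968 in microglia, Emcn at 3226 and 3.30, and Adgrf5, an adhesion receptor, at 1699.9 and 2.53. Nrp1, a co-receptor of VEGF, stood at 2652 CPM in endothelial cells and 524 in microglia, and on plate A at 1669 and 517, under 4-fold. Of the 14 genes, 10 passed 4-fold on both plates that held both classes. On plate A 10.9% of all genes passed and on plate B 11.5%, and the share on both was not computed. Higher in microglia were Cd36, a fatty acid and scavenger receptor, at 1.03 CPM in endothelial cells and 347 in microglia, Tgfbi, a matrix protein, at 0.562 and 753, and Igfbp5, another growth factor carrier, at 0.234 and 6.95. On plate A Igfbp5 was under 4-fold, at 1.04 CPM in endothelial cells and 2.03 in microglia.

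Of 7 caveolar genes, 6 passed 4-fold in endothelial cells, where 11.7% of all genes did. The median log2 ratio was 6.74 for the 7 and -0.36 for all genes. Cavin2, a coat protein of caveolae, stood at 1377 CPM in endothelial cells and 1.28 in microglia, Cav1, their main membrane protein, at 1165 and 2.95, Ehd2, an ATPase of their neck, at 880.3 and 0.547, and Cavin3, another coat protein, at 533 and 4.95. Pacsin2, a membrane-bending protein, lay between at 126 CPM in endothelial cells and 214 in microglia. On the plates that held both classes Pacsin2 was past 4-fold in microglia, at 2.08 against 207 CPM on A and 0.943 against 218 on B. The median log2 ratio of all genes was -1.73 on A and -1.87 on B.

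In the lipid phosphatase family Plpp1 and Plpp3 stood far above their relatives in endothelial cells. Of 12 family members 9 were measured, and 3 of these passed 4-fold in endothelial cells: Plpp1, Plpp3 and Plppr2, a relative of these enzymes, at 11.3 CPM in endothelial cells and 0.0210 in microglia, with 0 reads in both classes on plate A. The other 6 lay between, among them Plpp6 at 35.6 CPM in endothelial cells and 25.5 in microglia and Plpp5 at 33.8 and 18.8. The median log2 ratio of the family was 0.82 over all plates, but 2.24 on plate A alone and -1.32 on plate B alone. Of 19 genes of lysophosphatidic acid and sphingosine 1-phosphate signalling 14 were measured, of which 6 passed 4-fold in endothelial cells, 5 lay between and 3 passed 4-fold in microglia, with a median log2 ratio of 0.79 (0.87 on plate A and -0.82 on plate B). Over all genes 11.7% passed in endothelial cells and 19.9% in microglia, so the microglial count was near the background. Of the 6, only Enpp2 and S1pr3 passed on both plates with both classes, for which no share of all genes was computed. S1pr1, the main sphingosine 1-phosphate receptor of endothelium, stood at 688 CPM in endothelial cells and 154 in microglia, and within plate A at 531 and 191, under 4-fold. Enpp2, autotaxin, which makes lysophosphatidic acid, stood at 286 CPM in endothelial cells and 33.9 in microglia. Lpar6, a lysophosphatidic acid receptor, stood at 149.6 and 259, and Spns2, the exporter of sphingosine 1-phosphate, at 78.0 and 20.0. On the plates that held both classes Spns2 was the lower in endothelial cells, at 19.7 against 23.4 CPM on A and 0.471 against 18.2 on B. Sgpl1, the lyase that ends the pathway, stood at 3.56 CPM in endothelial cells and 302 in microglia, and S1pr2 and Lpar5 were the others past 4-fold in microglia. On plate A S1pr2 was the higher in endothelial cells, at 171 against 115 CPM.

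In the exocyst family, which includes Exoc3l2, 5 of 13 genes passed 4-fold in endothelial cells and 8 lay between, with a median log2 ratio of 0.50 (-0.94 on plate A and 0.33 on plate B). Of all genes, 11.7% passed 4-fold in endothelial cells. Exoc8 and Exoc3l4, 2 of the 5, did not pass on both plates with both classes, for which no share of all genes was computed. Exoc3l, the nearest relative of Exoc3l2 in name, stood at 188 CPM in endothelial cells and 0.0421 in microglia, a total of 2 reads in that class. Tnfaip2, also of the Sec6-like group, stood at 129 CPM in endothelial cells and 13.0 in microglia, and Exoc7, a core subunit, at 102 and 72.2. Exoc7 turned between the plates, at 129 CPM in endothelial cells and 40.1 in microglia on A, and 0.943 and 89.7 on B. Of 18 genes that build chondroitin and dermatan sulfate chains such as that of ESM1, 17 were measured, of which 5 passed 4-fold in endothelial cells, 8 lay between and 4 passed 4-fold in microglia, with a median log2 ratio of -0.18 (-3.94 on plate A and -3.60 on plate B). Over all genes the shares were 11.7% and 19.9%, so the microglial count was near the background. Of the 5, 2 passed on both plates with both classes, and 5 of the 8 between passed 4-fold in microglia there. These plates held only 7 and 10 endothelial cells, and the median log2 ratio of all genes on them was -1.73 and -1.87. The share of all genes past 4-fold in microglia within these plates was not computed. Nor was the share past 4-fold in endothelial cells on both plates, so neither count has a background beside it. Chst15, a sulfotransferase, stood at 526 CPM in endothelial cells and 21.1 in microglia, and Csgalnact1, which starts the chain, at 123 and 0.189. Dse, an epimerase that turns chondroitin into dermatan sulfate, stood at 0.187 CPM in endothelial cells and 176 in microglia. Chst14, the dermatan sulfotransferase, stood at 144 and 26.3, but at 0 CPM in the endothelial cells of plate A against 20.3 CPM in its microglia. Chst12, another sulfotransferase, stood at 79.4 and 164 CPM, but was past 4-fold in microglia on the plates with both classes, at 1.04 against 171 CPM on A and 0 against 161 on B. Xylt1, Chsy1 and Ust were the others past 4-fold in microglia.

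Of 7 genes listed as binding partners of CD24 or ESM1 or as relatives of these, 1 passed 4-fold in endothelial cells and 1 lay between. The other 5 passed 4-fold in microglia. Over all genes 11.7% passed in endothelial cells and 19.9% in microglia. The median log2 ratio was -3.55 for the 7 and -0.36 for all genes. Selp, P-selectin, stood at 22.1 CPM in endothelial cells and 1.52 in microglia, with 0 in the endothelial cells of plates A and B. It was read in only 2.70% of endothelial cells and 0.357% of microglia. Hmgb1, a nuclear protein also released from cells, stood at 40.1 and 39.4. The chains of the integrin LFA-1, Itgal and Itgb2, stood at 7.68 and 3.42 CPM in endothelial cells against 67.5 and 549 in microglia. Siglech, a Siglec of microglia listed only as a relative of Siglecg, stood at 0.421 CPM in endothelial cells and 732 in microglia. Siglecg, the mouse Siglec known to bind CD24, stood at 0 and 47.8. L1cam, an adhesion molecule, stood at 0.375 and 15.1 CPM.

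Genes of blood-brain barrier endothelium were present beside Plvap in the same cells at uneven levels. Of 16 such genes 15 were measured, of which 7 passed 4-fold in endothelial cells and 8 lay between, with a median log2 ratio of 1.74. Over all genes 11.7% passed in endothelial cells, and the median log2 ratio was -0.36. Of the 7, 4 passed on both plates that held both classes, for which no share of all genes was computed. Cldn5, the main claudin of the barrier, had 10 or more reads in 102 of 111 endothelial cells with a median of 208 CPM, and Itm2a, a membrane protein of brain endothelium, in 80 with a median of 625. Abcg2, an efflux pump, had them in 57 cells with a median of 76.6 CPM, and Slc2a1 in 30 with a median of 34.4. Pooled, Cldn5 stood at 263 CPM in endothelial cells and 24.5 in microglia, Itm2a at 866 and 25.0, Abcg2 at 459 and 17.2 and Slc2a1 at 182 and 80.7. Cldn5 had reads in 92.1% of microglia and Itm2a in 90.7%. On plate A Cldn5 was under 4-fold, at 66.5 CPM in endothelial cells and 18.2 in microglia. Mfsd2a, a lipid transporter, Slco1c1, a thyroid hormone transporter, and Lef1, a transcription factor of Wnt signalling, had 10 reads in no endothelial cell, which allows a share of up to 2.70%. These 3 were picked after their values were seen. Mfsd2a stood at 2.53 CPM in endothelial cells and 1.66 in microglia, Slco1c1 at 5.15 and 5.24 and Lef1 at 1.22 and 0.737. Abcg2 ranked against Plvap with a rho of -0.28 over all endothelial cells, -0.25 within C and -0.33 within D, and Itm2a with -0.27, -0.30 and -0.16. The rho of their CPM with gene reads was 0.28 for Abcg2 and 0.15 for Itm2a, opposite in sign to that of Plvap, and the part of depth was not tested. Cldn5 stood at 0.19 with Plvap over all cells, -0.04 within C and 0.58 within D.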

How the data were processed

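Single brain vascular cells were sorted into plates and sequenced by the Smart-seq2 method, per the labels' protocols. The authors deposited raw counts, in whole reads for each gene. The submitters' processing notes list featureCounts, Subread 1.4.6-p5, SAMtools 1.16.1 and build GRCm39. The annotation, strand setting and treatment of duplicate and multiply mapped reads were not given in the sources used here, so overlapping genes are uncertain. The class code of each cell was read from a deposited cell table, whose 391 names matched the count columns once a leading X or 18 was dropped. Codes were matched to the labels by cell numbers and letters. No cell was filtered out, 0 columns were identical, no doublet caller was run, and 0 count columns were left unused. The 6 genes, the 8 lists around them and the 11 marker lists were chosen with earlier results of these data known.

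Reads were summed per class or plate and divided by all gene reads to give CPM. The 95% intervals are exact Poisson for sums, exact conditional binomial for ratios and exact Clopper-Pearson for shares of cells. Log2 ratios are of endothelial cells over microglia after adding 1 CPM to each class, so ratios of low genes are understated. A gene counts as measured when 1 class or both reach 1 CPM, and as different at 4-fold. A count of 0 is read as up to 3 counts. Exon lengths, overlaps and shared 50-base windows come from GENCODE M21, of an older build, so no gene coordinates of the counts are given. The text names the 6 genes, the up to 4 most abundant genes of each list in endothelial cells, members outside a list's main direction, and up to 3 genes most like each of the 6. A gene was like another at a rho of 0.4 or more over all endothelial cells and 0.3 within plates C and D, compared over genes that reached 50 CPM and had reads in 50% of the cells or more. Gtpbp3, Mtrex, Gm6212 and mt-Rnr2 were named for their overlap or level after the values were seen, as were Plppr2, Exoc8, Exoc3l4, S1pr3, Pecam1, Esam, Tie1, Cdh5, Kdr, Egfl7, Flt1, Tek and the genes below 0.4. Alternatives were other pseudocounts, per-cell means and medians, TMM scaling, totals without mitochondrial genes, no filter, thinned cells and leaving out plates. The steps were tested on simulated data. Scripts ran in Python 3.11.15 with pandas 2.3.3, scipy 1.17.1, numpy 2.4.6 and matplotlib 3.10.9, and in R 4.3.3 with edgeR 4.0.16 for TMM factors only.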

Additional observations from a re-analysis of the deposited data

How the results depend on the processing

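All 6 genes stayed at least 4-fold higher in endothelial cells than in microglia under the 14 alternatives run, 1 of which was added after the data were seen (without the endothelial cell lowest in Plvap). The log2 ratios over these alternatives were 9.41 to 13.04 for Plvap, 6.44 to 11.41 for Plpp1, 8.17 to 11.85 for Plpp3, 7.15 to 13.25 for Esm1, 4.39 to 9.57 for Exoc3l2 and 5.53 to 11.09 for Cd24a, and all 84 kept their side. The share of all genes that much higher in endothelial cells was 5.54% with a pseudocount of 10 CPM (831 genes against 1761), 3.09% with no filter on low values and 41.5% with medians of per-cell CPM (735 of 1771 genes). That last setting moved the median log2 ratio of all genes to 0.50, and TMM scaling moved it to -0.28, from -0.36. The share of endothelial cells with a read of every gene, 55.9% in the report, was 26.1% at 10 or more reads, 68% on plate C alone, 43.2% on plate D alone and 45.9% without plate C; the cause of the difference between plates was not tested. The median rho over pairs, 0.11, ran from 0.0263 within plate C to 0.20 within plate D over the alternatives run. With 1 sample per class, no variation between animals could be measured, and reads without molecular identifiers limit what the level of an abundant gene such as Plvap can show. No paired analysis was possible because each class is 1 sample with no numbered replicates.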
